A study of Mus musculus with 10 samples.

Results

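The 6 genes Ifi209, Gimap6, Akr1b8, Mirt1, Rasl11a and Radx had very few RNA counts in mouse cortical neurons kept without brain-derived neurotrophic factor (BDNF) and many more with it. Out of 48526 genes listed they were chosen by their levels in these same libraries, very low without BDNF and much higher with it under both viruses of the study. The BDNF differences below are therefore descriptions and carry no test. All 6 were among the 13452 genes that passed a filter on low counts. Ifi209, Gimap6, Akr1b8 and Rasl11a passed it only through libraries with BDNF, while Mirt1 and Radx also reached its limit in libraries without BDNF. Polyadenylated RNA was sequenced from primary neurons that were dissected from cortices of wild-type C57BL/6J embryos at E16.5 and cultured. Every culture received 0.5 µM AraC, a drug that kills dividing cells, and every culture received a lentivirus. The groups were BDNF (control lentivirus, then BDNF; 3 libraries), Control (control lentivirus, no BDNF; 3 libraries), H2BE+BDNF (lentivirus expressing the histone H2B variant H2BE from a constitutively active promoter, then BDNF; 2 libraries) and H2BE (the same virus, no BDNF; 2 libraries). RNA was taken 24 h after BDNF.

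BDNF is a secreted growth factor of the brain that binds the receptor TrkB on neurons and starts signalling through the ERK, phosphoinositide 3-kinase and phospholipase C pathways. These pathways act on transcription factors such as CREB, serum response factor with its ETS partners, AP-1 and the EGR proteins, and through them on a first wave of genes and then a later one. The 6 genes come from families better known in other tissues. Ifi209 belongs to the PYHIN (Ifi200) family, whose members carry a pyrin domain or a DNA-binding HIN domain or both and are known as interferon-inducible genes of immune cells. Gimap6 encodes a GTPase of the immunity-associated GIMAP family, studied mostly in lymphocytes. Akr1b8 encodes an aldo-keto reductase, an enzyme that reduces reactive aldehydes with NADPH. Mirt1 is a long noncoding RNA named for its induction in infarcted mouse heart. Rasl11a encodes a small GTPase of the Ras superfamily. Radx encodes a protein that binds single-stranded DNA and acts at replication forks, a role known from human cells.

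The genes lie on 5 chromosomes, in the coordinates of GENCODE M21 on the GRCm38 (mm10) assembly. Ifi209 (ENSMUSG00000043263) spans chr1:173630917-173647928 on the plus strand. Gimap6 (ENSMUSG00000047867) spans chr6:48701582-48708225 on the minus strand, and Akr1b8 (ENSMUSG00000029762) chr6:34354119-34368463 on the plus strand, 14.3 Mb away. Mirt1 (ENSMUSG00000097636) is a lincRNA at chr19:53443230-53464796 on the minus strand. Rasl11a (ENSMUSG00000029641) is at chr5:146845071-146847726 and Radx (ENSMUSG00000042498) at chrX:139480367-139554582, both on the plus strand.

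The 250 bases before the RefSeq start of each gene were read for letters bound by factors known to act after growth factor signals. RefSeq windows on GRCm38.p6 were found for 6 of 6 genes. The 4 sequences below are shown because they hold an AP-1 site (TGANTCA), an EGR site (GCGNGGGCG), an ETS site (GGAAGT) or the core of an antioxidant response element (TGACNNNGC). Capitals mark these matches on either strand. The sequences run from 5′ to 3′ on the strand of the gene.
Ifi209, chr1:173630609-173630858, plus strand: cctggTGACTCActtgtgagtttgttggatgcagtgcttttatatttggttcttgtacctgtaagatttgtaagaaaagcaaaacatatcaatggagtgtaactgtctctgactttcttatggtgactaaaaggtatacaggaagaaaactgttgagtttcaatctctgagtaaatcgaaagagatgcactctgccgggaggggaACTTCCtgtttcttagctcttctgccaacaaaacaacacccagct
Gimap6, chr6:48708245-48708494, minus strand: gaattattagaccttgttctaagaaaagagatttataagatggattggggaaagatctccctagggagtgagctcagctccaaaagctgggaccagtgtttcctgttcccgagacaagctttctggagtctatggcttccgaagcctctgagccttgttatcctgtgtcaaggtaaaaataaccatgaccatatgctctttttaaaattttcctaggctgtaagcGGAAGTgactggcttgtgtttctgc
Akr1b8, chr6:34353896-34354145, plus strand: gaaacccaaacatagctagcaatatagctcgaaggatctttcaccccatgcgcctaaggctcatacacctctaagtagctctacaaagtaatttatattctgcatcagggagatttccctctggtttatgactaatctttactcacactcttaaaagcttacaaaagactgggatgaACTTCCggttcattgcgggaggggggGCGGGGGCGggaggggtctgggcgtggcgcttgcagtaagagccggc
Mirt1, chr19:53464797-53465046, minus strand: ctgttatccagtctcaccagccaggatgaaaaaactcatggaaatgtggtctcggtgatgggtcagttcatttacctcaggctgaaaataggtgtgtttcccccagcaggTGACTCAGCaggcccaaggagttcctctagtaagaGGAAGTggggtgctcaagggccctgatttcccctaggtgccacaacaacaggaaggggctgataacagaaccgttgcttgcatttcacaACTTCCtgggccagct

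AP-1 letters stood at -245 to -239 of Ifi209 and at -140 to -134 of Mirt1, counted back from the start, and 6.75% of all 32851 RefSeq windows of this length held them. In Mirt1 the AP-1 letters overlap the antioxidant response core at -140 to -132, which 10.2% of windows held. The EGR letters stood at -47 to -39 of Akr1b8 and in 4.70% of windows. ETS letters were found in 4 of the 6 genes, at -45 to -40 of Ifi209, -25 to -20 of Gimap6, -73 to -68 of Akr1b8, and both -105 to -100 and -16 to -11 of Mirt1, and in 19.7% of all windows. No match to a full CRE (TGACGTCA, 1.55% of windows), to an interferon-stimulated response element (2.98%), to a kappaB site (3.90%) or to a serum response element (1.47%) was in any of the 6 windows.

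In all 12 motifs were searched on both strands, and they were chosen with the windows in view. Of the other motifs, TATAAA (12.4% of windows) was read on the opposite strand in Ifi209, Gimap6 and Akr1b8, GGGCGG (the GC box, 32.7%) in Akr1b8, where it overlaps the EGR letters, in Rasl11a and in Radx, CACGTG (an E-box, 6.02%) in Radx at -128 to -123, and the short CRE form TGACG (17.8%) in Rasl11a at -89 to -85. The windows also differed in base composition. G and C made up 40.4% of the window in Ifi209, 43.6% in Gimap6, 49.6% in Akr1b8, 51.6% in Mirt1, 55.6% in Radx and 63.6% in Rasl11a, against a median of 52.4% over all windows. The dinucleotide CG occurred 2 times in Ifi209 and in Mirt1 and 15 times in Rasl11a, with a median of 6 over all windows. A match of letters is a description and not a bound site.

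**Figure D1:**
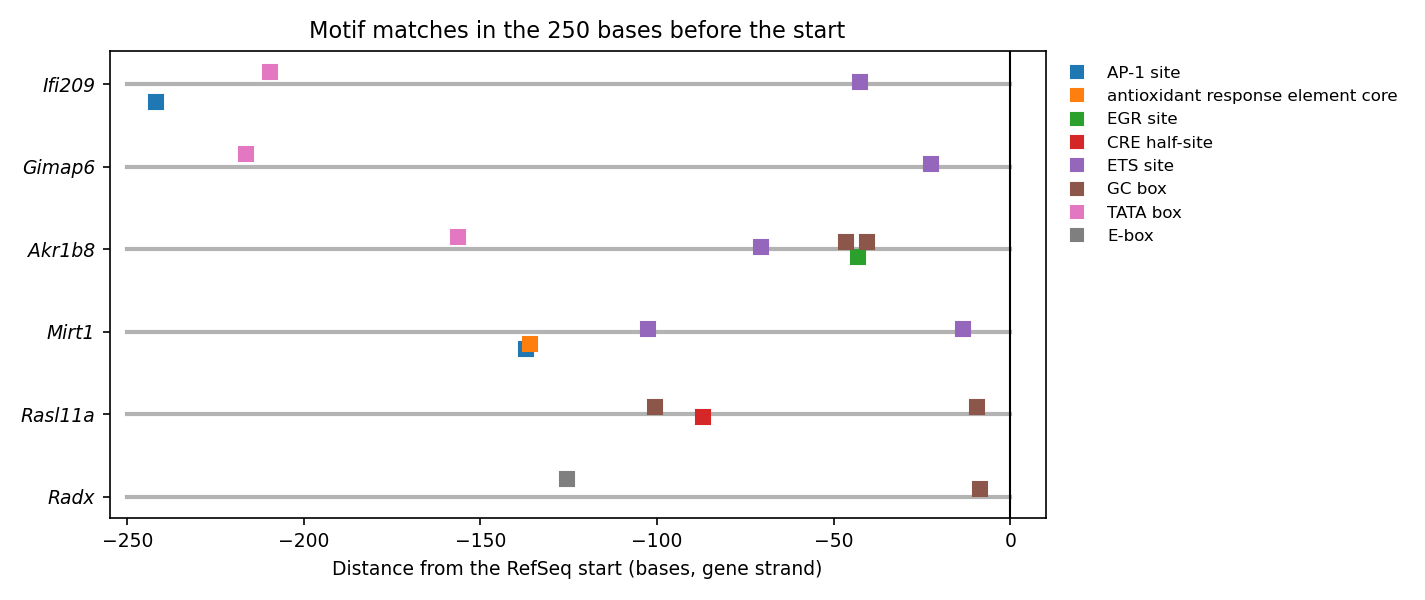
Motif matches in the 250 bases before the RefSeq start of each gene. The x axis is the distance from the start in bases on the strand of the gene, each row is a gene and each symbol a match; ETS letters lie within 105 bases of the start in Ifi209, Gimap6, Akr1b8 and Mirt1, and AP-1 letters occur in Ifi209 and Mirt1.

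Library totals ran between 5058074 and 14142545 counts, so that 3 counts, taken as the floor of detection for counting error alone, are 0.212 to 0.593 CPM, a count scaled to the size of its library. Library sizes were adjusted by the trimmed mean of M values (TMM). BDNF replicate 3 and Control replicate 3 are subsets of replicate 1 of their group. In both groups replicate 3 had more counts than replicate 1 at 0 of 48526 genes, with 61.9% of the counts of replicate 1 in BDNF and 73.7% in Control. Replicates 1 and 3 were therefore averaged as 1 sample, which leaves n = 2 distinct samples in each group for every mean and SD below, and each test used replicates 1 and 2 of BDNF and Control and replicates 2 and 3 of H2BE+BDNF and H2BE. The labels do not say that replicates were separate cultures, so p-values measure the spread between these samples, which may be technical. H2bc21, the mouse gene that encodes H2BE, was at 39.2 ± 4.98 CPM in H2BE and 5.28 ± 0.0743 CPM in Control, and at 33.6 ± 2.24 CPM in H2BE+BDNF and 3.99 ± 0.150 CPM in BDNF. Neurons dominate these libraries: the summed level of the pan-neuronal markers Rbfox3, Map2, Tubb3, Snap25 and Syt1 was 5278 to 5465 CPM in BDNF, 4797 to 4900 in Control, 5135 to 5162 in H2BE+BDNF and 5124 to 5144 in H2BE. The RNA comes from whole cultures, where more cells of a type and more RNA per cell cannot be told apart.

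Ifi209 had the fewest counts without BDNF. There were 167, 136 and 110 counts in BDNF replicates 1, 2 and 3, against 1, 6 and 1 counts in Control replicates 1, 2 and 3. Under the H2BE virus it had 132 and 101 counts in H2BE+BDNF replicates 2 and 3, against 1 and 0 counts in H2BE replicates 2 and 3. The groups did not overlap under either virus, and only Control replicate 2 held more than 3 counts among the libraries without BDNF. The levels were 13.0 ± 2.66 CPM in BDNF and 0.564 ± 0.681 CPM in Control, and 15.2 ± 0.855 CPM in H2BE+BDNF and 0.0705 ± 0.0997 CPM in H2BE. The ratio of the summed counts, scaled by library size, was 36.4 for BDNF over Control (95% counting interval 17.4 to 91.2). For H2BE+BDNF over H2BE it was 185 (32.9 to 7339), with 1 count in the denominator. Both ratios are set by which library stands below: BDNF was 182 times Control replicate 1 (32.4 to 7198) and 12.2 times Control replicate 2 (5.53 to 33.4).

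Gimap6 gathered the most counts of the 6 with BDNF. There were 238, 294 and 135 counts in BDNF replicates 1, 2 and 3, against 17, 1 and 12 in Control replicates 1, 2 and 3. With the H2BE virus it had 206 and 166 counts in H2BE+BDNF, against 6 and 3 in H2BE, replicates 2 and 3 of each. All 4 distinct BDNF-treated libraries lay far above all others, and the lowest library was Control replicate 2 with its single count. The mean was 21.9 ± 3.10 CPM in BDNF and 0.669 ± 0.699 CPM in Control, and 24.3 ± 0.479 CPM in H2BE+BDNF and 0.720 ± 0.178 CPM in H2BE. Summed counts gave a ratio of 24.8 for BDNF over Control (15.6 to 42.2) and 32.8 for H2BE+BDNF over H2BE (17.1 to 72.3). Set against Control replicate 1 alone, the BDNF level was 18.8 times as high (11.6 to 32.4), and against the 1 count of Control replicate 2 it was 128 times as high (22.9 to 5072).

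Akr1b8, the aldo-keto reductase, had 111, 111 and 67 counts in BDNF replicates 1, 2 and 3, against 11, 3 and 7 in Control replicates 1, 2 and 3. It had 74 and 99 counts in H2BE+BDNF replicates 2 and 3, against 7 and 5 in H2BE replicates 2 and 3. The groups did not overlap, and the libraries without BDNF lay between 0.523 and 0.991 CPM. The mean was 9.29 ± 0.271 CPM in BDNF and 0.620 ± 0.137 CPM in Control, and 11.6 ± 3.85 CPM in H2BE+BDNF and 0.989 ± 0.00281 CPM in H2BE. The wide SD in H2BE+BDNF comes from replicate 3, and replicate 2 was at 0.619 times its level (0.452 to 0.846). Ratios were 13.3 (7.78 to 24.8) for BDNF over Control and 11.4 (6.39 to 22.6) for H2BE+BDNF over H2BE.

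Mirt1, the noncoding RNA, had 157, 128 and 98 counts in BDNF replicates 1, 2 and 3, against 21, 6 and 16 in Control replicates 1, 2 and 3. It had 136 and 98 counts in H2BE+BDNF replicates 2 and 3, against 10 and 6 in H2BE replicates 2 and 3. Every library held counts, and those with BDNF lay above all others in CPM. The mean was 12.1 ± 2.22 CPM in BDNF and 1.27 ± 0.316 CPM in Control, and 15.2 ± 1.5 CPM in H2BE+BDNF and 1.30 ± 0.156 CPM in H2BE. Ratios were 8.87 (5.97 to 13.7) for BDNF over Control and 11.6 (7.0 to 20.7) for H2BE+BDNF over H2BE.

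Rasl11a, the Ras-like GTPase, had 106, 137 and 55 counts in BDNF replicates 1, 2 and 3, against 23, 4 and 14 in Control replicates 1, 2 and 3. In H2BE+BDNF replicates 2 and 3 it had 73 and 59 counts, against 8 and 6 in H2BE replicates 2 and 3. The groups did not overlap in CPM, and Control replicate 2 was again the lowest library. The mean was 9.83 ± 1.98 CPM in BDNF and 1.08 ± 0.545 CPM in Control, and 8.62 ± 0.152 CPM in H2BE+BDNF and 1.16 ± 0.0432 CPM in H2BE. Ratios were 7.56 (5.07 to 11.7) for BDNF over Control and 7.49 (4.31 to 14.1) for H2BE+BDNF over H2BE. Against Control replicate 2 alone the BDNF level was 14.6 times as high (5.64 to 54.1).

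Radx, the gene of the single-stranded DNA-binding protein, kept some counts throughout. Its counts were 132, 128 and 99 in BDNF replicates 1, 2 and 3, against 18, 14 and 12 in Control replicates 1, 2 and 3. Under the H2BE virus they were 112 and 81 in H2BE+BDNF replicates 2 and 3, against 12 and 10 in H2BE replicates 2 and 3. The groups did not overlap, and all libraries without BDNF held at least 10 counts. The mean was 11.6 ± 1.51 CPM in BDNF and 1.82 ± 0.879 CPM in Control, and 12.5 ± 1.2 CPM in H2BE+BDNF and 1.84 ± 0.205 CPM in H2BE. Ratios were 6.83 (4.72 to 10.2) for BDNF over Control, 4.48 (2.62 to 8.30) when Control replicate 2 alone stood below, and 6.97 (4.47 to 11.4) for H2BE+BDNF over H2BE.

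**Figure D2:**
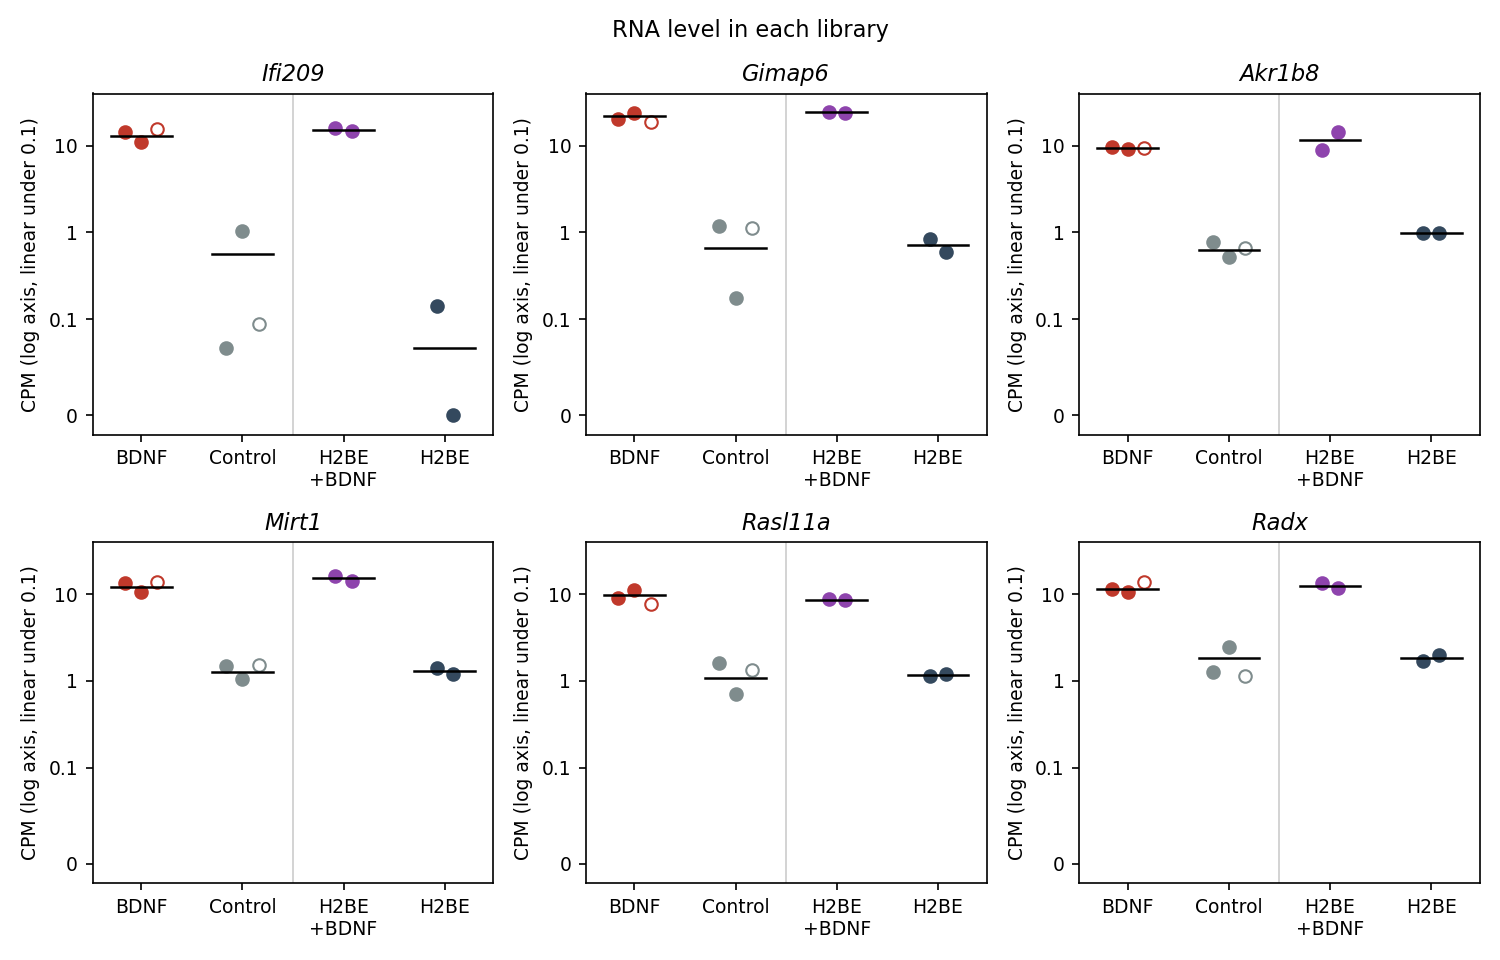
RNA level of the 6 genes in each of the 10 libraries, with groups on the x axis and CPM on a log axis that is linear under 0.1. Points are libraries and bars the mean over distinct samples; in every gene the BDNF and H2BE+BDNF points lie above all Control and H2BE points, and Ifi209 reaches 0 in H2BE replicate 3.

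The members' distance from the other groups was fixed by the choice of genes, and nothing is read from their count: 6 of 6 were higher with BDNF, where edgeR called 16.8% of tested genes higher and 14.6% lower in BDNF than in Control, and 13.4% higher and 12.3% lower in H2BE+BDNF than in H2BE. Samples did not overlap and were higher with BDNF in 32.4% of tested genes under the control virus and in 32.7% under the H2BE virus. The counts of other genes called below, in gene lists and among neighbours, stand beside these same shares. The name near-silent holds better for some genes than for others. Per kb of exon sequence, mean CPM in Control exceeded that of 1.45% (Mirt1), 1.62% (Ifi209), 2.33% (Gimap6), 6.81% (Akr1b8), 8.29% (Radx) and 15.1% (Rasl11a) of the 13409 tested genes with a known length. In BDNF it exceeded that of 20.8% (Mirt1), 34.8% (Radx), 38.4% (Ifi209), 50.9% (Akr1b8), 51.2% (Gimap6) and 58.0% (Rasl11a). On this per-length scale the 6 genes with BDNF thus lay on both sides of the middle of the tested genes. By CPM not divided by length all 6 lay below the middle in BDNF, exceeding 29.0% (Akr1b8) to 45.1% (Gimap6) of tested genes. In Control, Mirt1 then exceeded 4.76% of tested genes, more than Akr1b8 (0.944%) or Rasl11a (3.4%). Without BDNF 5 of the 6 had counts in every library.

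Levels were set in order between the 6 genes on the same per-length scale. In BDNF, Rasl11a was highest at 8.18 ± 1.65 CPM per kb, followed by Gimap6 at 6.27 ± 0.885, Akr1b8 at 6.20 ± 0.181, Ifi209 at 3.67 ± 0.750, Radx at 3.09 ± 0.404 and Mirt1 at 1.41 ± 0.260 CPM per kb. The step between Gimap6 and Akr1b8 was smaller than the SD of Gimap6, and the step between Ifi209 and Radx smaller than the SD of Ifi209. In H2BE+BDNF Akr1b8 stood highest, at 7.72 ± 2.57 CPM per kb, ahead of Rasl11a at 7.18 and Gimap6 at 6.95, steps smaller than the SD of Akr1b8. In Control the levels were 0.901 ± 0.454 CPM per kb for Rasl11a, 0.486 ± 0.235 for Radx, 0.413 ± 0.0912 for Akr1b8, 0.191 ± 0.2 for Gimap6, 0.159 ± 0.192 for Ifi209 and 0.148 ± 0.0368 for Mirt1. Of the steps in this order, that between Akr1b8 and Gimap6 exceeded both SDs of its pair, and the other 4 were smaller than the larger SD of theirs.

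**Figure D3:**
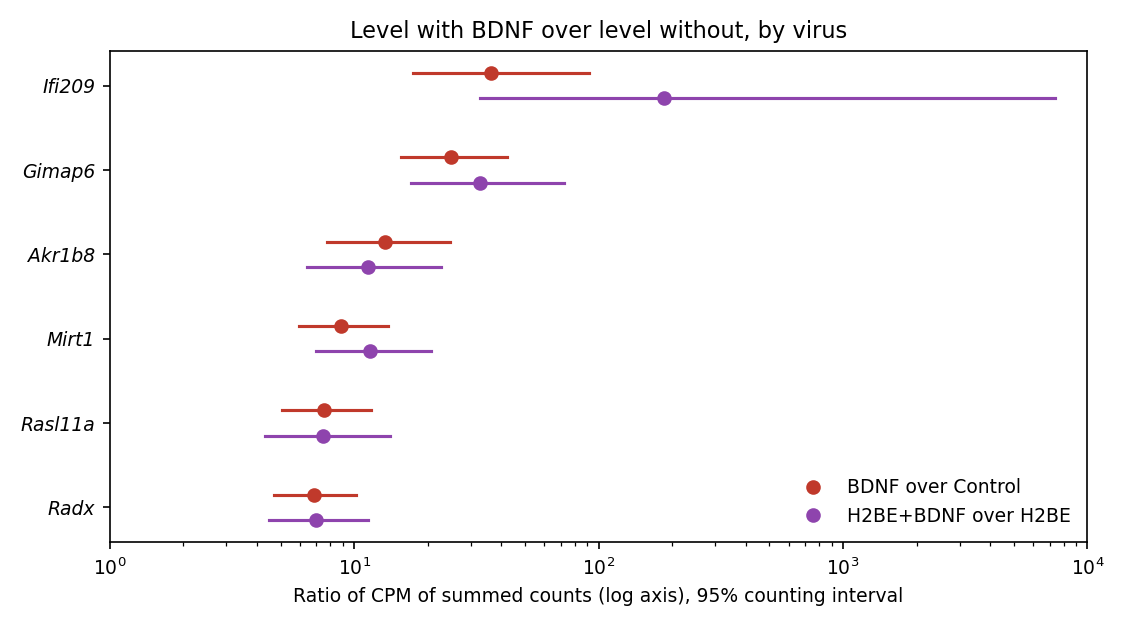
Ratio of the level with BDNF to the level without it for each gene, on a log axis, from summed counts of the distinct libraries and with 95% exact counting intervals. Points are given for H2BE+BDNF over H2BE and for BDNF over Control; the ratios run between 6.83 (Radx, control virus) and 185 (Ifi209, H2BE virus), and the intervals of the same gene under both viruses overlap.

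Few other genes met limits set by the 6 genes themselves. In all, 973 tested genes were as low as the 6 in both groups without BDNF (a mean of at most 1.84 CPM, the highest mean among the members). Of these, 7 also reached the members' lowest ratio of mean CPM, 6.35, under both viruses and their lowest level with BDNF, 8.62 CPM. They were the 6 genes and Galr1, the receptor for the neuropeptide galanin. Galr1 was at 11.9 CPM in BDNF and 0.344 CPM in Control, and at 11.7 CPM in H2BE+BDNF and 0.368 CPM in H2BE. At any level, 32 tested genes reached that ratio. These limits were taken from the members after their values were seen, and the small number rests on them. Mmp3, at 0 CPM in Control and H2BE, missed the level limit with 7.72 CPM in BDNF and 8.54 CPM in H2BE+BDNF. Ptgs2 missed it with 7.44 CPM in H2BE+BDNF.

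The genes were not chosen for a difference between the viruses, and this was tested. The choice did ask for low levels in both Control and H2BE and for a large rise under both viruses, so it limited beforehand how far the viruses could differ, most of all without BDNF and in the size of the BDNF response. With BDNF present, edgeR's quasi-likelihood test with Benjamini-Hochberg adjustment over all 13452 genes called 0 of the 6 between H2BE+BDNF and BDNF, and 0.0223% of all genes. An unadjusted p under 0.05 was found for 0 of the 6 and for 11.4% of all genes. DESeq2 gave no adjusted p to any of the 6 here, and its smallest unadjusted p was 0.273. Mirt1 had the largest difference, with 16.3 and 14.1 CPM in the H2BE+BDNF samples and 10.5 to 13.8 CPM in the BDNF libraries. Its log2 fold change was 0.35 (SE 0.17, 95% interval -0.01 to 0.72, edgeR adjusted p = 0.456), and it was the single gene of the 6 whose samples did not overlap, as 18.7% of tested genes also did in this direction. For Akr1b8 the log2 fold change was 0.30 (-0.15 to 0.75), for Ifi209 0.26 (-0.22 to 0.74), for Radx 0.21 (-0.18 to 0.61), for Gimap6 0.13 (-0.21 to 0.47) and for Rasl11a -0.23 (-0.67 to 0.20), with edgeR adjusted p between 0.606 and 0.785. These intervals leave room for differences of either sign in all 6 genes.

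Without BDNF the counts were too few for a firm statement. Between H2BE and Control edgeR called 0 of the 6, and 2.13% of all genes, with 0 of the 6 and 18.2% of all genes at an unadjusted p under 0.05. DESeq2 gave the 6 no adjusted p, with a smallest unadjusted p of 0.145. Ifi209 had a log2 fold change of -1.94 (SE 1.47, -5.06 to 1.18, edgeR adjusted p = 0.534), resting on 1 count in H2BE and 7 in the 2 Control libraries used. Akr1b8 was at 0.50 (-0.75 to 1.75), Gimap6 at -0.26 (-1.57 to 1.05), Rasl11a at -0.20 (-1.19 to 0.79), Radx at 0.16 (-0.69 to 1.01) and Mirt1 at -0.02 (-0.95 to 0.90). Akr1b8 was the gene whose H2BE samples lay wholly above those of Control, which held for 24.5% of tested genes.

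Whether the BDNF response itself differed between the viruses was tested as the difference of the log2 fold changes, the response under the H2BE virus minus that under the control virus. It was called for 0 of the 6 genes and for 1.15% of all genes by edgeR, with 0 of the 6 and 16.7% of all genes at an unadjusted p under 0.05. In DESeq2 they had no adjusted p, and the smallest unadjusted p was 0.159. Ifi209 had a difference of 2.20 (SE 1.48, -0.94 to 5.34, edgeR adjusted p = 0.495). The other 5 lay between -0.20 in Akr1b8 (-1.49 to 1.09) and 0.39 in Gimap6 (-0.97 to 1.74), with edgeR adjusted p of at least 0.746. The interval of Akr1b8 includes a 2-fold difference in either direction.

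**Figure D4:**
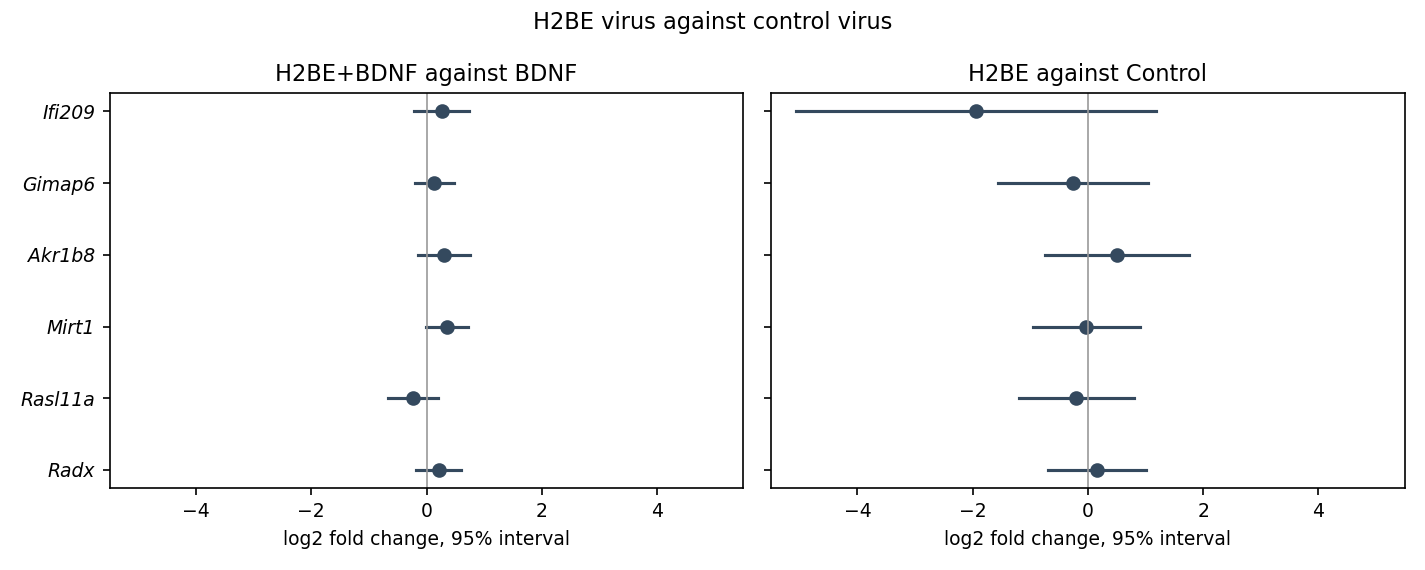
Log2 fold change of the 6 genes between the H2BE virus and the control virus, with 95% intervals from edgeR, in panels for H2BE+BDNF against BDNF and for H2BE against Control. All intervals include 0; those with BDNF span at most -0.67 to 0.75, and that of Ifi209 without BDNF reaches from -5.06 to 1.18.

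The relatives of Ifi209 stayed low. Of 14 PYHIN genes listed, 4 had no counts in the 8 distinct libraries and 2 were tested, Ifi209 and Aim2, a sensor of DNA in the cytoplasm. Aim2 was at 0.927 ± 0.152 CPM in BDNF and 1.31 ± 0.618 CPM in Control (log2 fold change -0.49, edgeR adjusted p = 0.459), and at 0.839 ± 0.166 CPM in H2BE+BDNF and 1.67 ± 0.165 CPM in H2BE (-0.95, edgeR adjusted p = 0.207). The summed level of all PYHIN genes other than Ifi209 was 3.44 to 4.18 CPM in BDNF, 1.43 to 2.96 CPM in Control, 3.83 to 4.33 CPM in H2BE+BDNF and 1.98 to 2.54 CPM in H2BE, so that the groups with BDNF did not overlap with those without. A rise without overlap was seen in 32.4% of single tested genes under the control virus and in 32.7% under the H2BE virus. Ifi208, the protein-coding gene that follows Ifi209 on the same strand, was at 0.515 ± 0.0334 CPM in BDNF and 0.0412 ± 0.0582 CPM in Control, and at 0.443 ± 0.219 CPM in H2BE+BDNF and 0 in H2BE, with 20 counts over 8 libraries. Several other PYHIN genes too low to be tested also had higher means with BDNF under both viruses. Ifi203 was at 0.521 CPM in BDNF and 0.257 CPM in Control, and at 1.36 CPM in H2BE+BDNF and 0.0705 CPM in H2BE. In the same order, Ifi204 was at 0.709, 0.17, 0.336 and 0.141 CPM and Ifi202b at 0.377, 0.0872, 0.528 and 0.0705 CPM. They had 38, 25 and 19 counts over the 8 libraries. Aim2, which was lower with BDNF, made up much of the family sum in Control and H2BE. A share of 33.8% of the 50-base windows of Ifi209 transcripts also occurs in transcripts of other genes, most of them in Ifi214, which had 0 counts. How the counting treated such reads is not given in the sources used here.

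Of the genes that interferon switches on, few were expressed. Of 34 such genes listed 9 were tested, and 1 was higher and 1 lower under each virus (median log2 fold change 0.11 for BDNF against Control, where that of all tested genes was -0.01, and -0.01 for H2BE+BDNF against H2BE, where that of all was -7.14e-05). B2m, the light chain of MHC class I, rose to 32.5 ± 2.19 CPM in BDNF, against 14.0 ± 1.14 CPM in Control (log2 fold change 1.27, edgeR adjusted p = 5.52e-07), and to 31.1 ± 0.961 CPM in H2BE+BDNF, against 13.5 ± 1.12 CPM in H2BE (1.21, edgeR adjusted p = 5.61e-06). Cmpk2, a mitochondrial nucleotide kinase, fell to 9.63 ± 1.69 CPM in BDNF, against 19.6 ± 1.87 CPM in Control (-1.0, edgeR adjusted p = 0.000131), and to 10.1 ± 0.974 CPM in H2BE+BDNF, against 20.7 ± 1.48 CPM in H2BE (-1.05, edgeR adjusted p = 0.000309). Ifit1 and Mx1, widely used readouts of interferon, had 6 and 10 counts over the 8 distinct libraries.

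Gimap6 was the single tested gene of its family of 8. The other 7 GIMAP genes summed to 0.765 to 1.23 CPM in BDNF, 0.152 to 0.349 CPM in Control, 1.2 to 1.73 CPM in H2BE+BDNF and 0 to 0.423 CPM in H2BE. Gimap8 was at 0.384 ± 0.384 CPM in BDNF and 0.0872 ± 0.123 CPM in Control, and Gimap4 was at 0.381 ± 0.157 CPM in BDNF and 0.128 ± 0.0651 CPM in Control. All of these lie near or under the floor, and Gimap8 had 25 counts and Gimap4 18 over the 8 distinct libraries. The sums of the 7 genes did not overlap between cultures with and without BDNF. Of single tested genes, 32.4% were higher with BDNF without overlap under the control virus and 32.7% under the H2BE virus. Lymphocyte markers were near 0. Cd3d, Cd3g, Cd8a and Ms4a1 had 0 counts, Cd3e had 1 over the 8 distinct libraries in which Gimap6 had 931, and the sum of the list, most of it Lck, was 7.29 to 7.39 CPM in BDNF, 6.10 to 6.25 in Control, 5.05 to 8.01 in H2BE+BDNF and 6.14 to 6.48 in H2BE. Of the endothelial markers, Erg and Tie1 had 0 counts, Cldn5 3, Emcn 4, Cdh5 5, Tek 12, Esam 39, Kdr 49, Pecam1 54 and Flt1 111. Flt1 was tested and not called under either virus (edgeR adjusted p = 0.439 and 0.621).

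Markers of microglia, the resident immune cells of the brain, were also read. The 11 microglia and macrophage markers summed to 26.4 to 27.8 CPM in BDNF, 13.6 to 14.1 in Control, 23.8 to 25.1 in H2BE+BDNF and 5.94 to 9.16 in H2BE. Most of the gap was Cd68, a lysosomal protein, at 17.8 ± 0.955 CPM in BDNF and 4.86 ± 0.467 CPM in Control (log2 fold change 1.84, edgeR adjusted p = 2.85e-07), and at 18.6 ± 0.960 CPM in H2BE+BDNF and 3.52 ± 0.210 CPM in H2BE (2.39, edgeR adjusted p = 2.72e-07). No gene of the list was at 0 throughout. Over the 8 libraries Tmem119 had 1 count, P2ry12 10, Itgam 12, Ptprc 26, Cx3cr1 38, Aif1 60, Csf1r 64, C1qb 86, C1qc 108 and C1qa 136. Csf1r, the receptor that microglia need to survive, was at 1.26 CPM in BDNF and 0.507 CPM in Control, and at 1.06 CPM in H2BE+BDNF and 0.621 CPM in H2BE, and was too low to be tested. Of 5 markers tested, 1 rose in BDNF against Control and 2 in H2BE+BDNF against H2BE, Cd68 and Aif1 (2.95, edgeR adjusted p = 0.0215). The call of Aif1 was lost without H2BE replicate 2, H2BE replicate 3 or H2BE+BDNF replicate 2 (log2 fold changes 2.70, 3.16 and 2.70). C1qa was at 2.05 ± 0.468 CPM in BDNF and 2.73 ± 0.334 CPM in Control. Oligodendrocyte markers summed to 73.9 to 80.2 CPM in BDNF, 40.4 to 43.4 in Control, 81.5 to 85.2 in H2BE+BDNF and 44.0 to 48.8 in H2BE, and Mbp was the member of that list that rose under both viruses. Astrocyte markers summed to 44.1 to 77.8 CPM in BDNF, 46.9 to 57.3 in Control, 38.5 to 40.5 in H2BE+BDNF and 46.6 to 49.1 in H2BE, and mural and fibroblast markers to 51.4 to 61.6, 64.0 to 76.0, 58.7 to 61.6 and 64.7 to 85.4 CPM in these groups. Endothelial markers summed to 3.66 to 3.93 CPM in BDNF, 3.25 to 6.10 in Control, 3.83 to 4.76 in H2BE+BDNF and 3.24 to 3.57 in H2BE. Of the neuronal subtypes, excitatory markers summed to 858 to 859 CPM in BDNF, 918 to 936 in Control, 905 to 938 in H2BE+BDNF and 1046 to 1066 in H2BE, and interneuron markers to 1455 to 1611 in BDNF, 1380 to 1384 in Control, 1285 to 1288 in H2BE+BDNF and 1266 to 1313 in H2BE. Single markers moved in opposite directions within these sums. Of 7 excitatory markers 2 were called higher and 4 lower in BDNF than in Control. Slc17a6 rose (log2 fold change 1.15 under the control virus and 1.16 under the H2BE virus) and Neurod6 fell (-0.77 and -0.54). Of the pan-neuronal markers Map2 rose (0.55 and 0.35), and Rbfox3 (-0.59 and -0.66) and Tubb3 (-0.47 and -0.36) fell. Dcn of the mural and fibroblast list fell (-1.45 and -0.94). The part of these other cells in the levels of the 6 genes was not tested.

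Of the aldo-keto reductases other than Akr1b8, 5 were tested (of 17 listed, Akr1b8 included). edgeR called 0 of the 5 under either virus, with a median log2 fold change of -0.15 in BDNF against Control and 0.09 in H2BE+BDNF against H2BE; at an unadjusted p under 0.05, Akr1a1 was lower in BDNF than in Control. The neighbour of Akr1b8 on the chromosome, Akr1b1, the aldose reductase gene 36.6 kb away, was at 35.4 ± 6.84 CPM in BDNF and 35.4 ± 4.72 CPM in Control (-0.01, edgeR adjusted p = 0.965). Akr1b10, whose transcripts share most of the 2.90% of Akr1b8 windows that recur in other genes, was at 1.97 ± 0.349 CPM in BDNF and 2.17 ± 0.142 CPM in Control (-0.25, edgeR adjusted p = 0.623), and at 2.63 ± 1.18 CPM in H2BE+BDNF and 1.88 ± 0.135 CPM in H2BE (0.44, edgeR adjusted p = 0.489). Relatives too low to be tested went both ways. Akr1c18, a progesterone-degrading enzyme, was at 1.06 ± 0.590 CPM in BDNF and 0.211 ± 0.0514 CPM in Control, and at 0.924 ± 0.122 CPM in H2BE+BDNF and 0 in H2BE. Akr1c19 was at 0.0566 ± 0.0801 CPM in BDNF and 0.957 ± 0.372 CPM in Control, and at 0.384 ± 0.134 CPM in H2BE+BDNF and 0.339 ± 0.0809 CPM in H2BE. Akr1c13 was at 0.387 ± 0.315 CPM in BDNF and 1.05 ± 0.480 CPM in Control, and at 0.252 ± 0.152 CPM in H2BE+BDNF and 0.509 ± 0.121 CPM in H2BE.

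Akr1b8 is known as a target of the oxidative stress factor NRF2, and 20 other NRF2 targets were tested. In BDNF against Control 7 of them were higher and 2 lower (median log2 fold change 0.06), where 16.8% of all tested genes were called higher and 14.6% lower. In H2BE+BDNF against H2BE 7 were higher and 0 lower (median 0.16), where the shares of all tested genes were 13.4% and 12.3%. The 2 lower in BDNF were the ferritin genes Fth1, at 584 CPM against 707 CPM in Control (edgeR adjusted p = 0.000618), and Ftl1, at 334 CPM against 422 CPM in Control (edgeR adjusted p = 0.00195). Txnrd1, thioredoxin reductase, rose to 129 ± 0.420 CPM in BDNF, against 87.8 ± 2.68 CPM in Control (0.53, edgeR adjusted p = 1.06e-05), and Srxn1, which repairs peroxiredoxins, to 84.2 ± 13.3 CPM in BDNF, against 48.1 ± 3.63 CPM in Control (0.77, edgeR adjusted p = 2.56e-05). In H2BE+BDNF against H2BE, Txnrd1 was at 0.38 and Srxn1 at 0.73 (edgeR adjusted p = 0.000577 and 0.000179). Slc7a11, the cystine importer, rose to 10.2 ± 1.04 CPM in BDNF, against 3.49 ± 0.493 CPM in Control (1.67, edgeR adjusted p = 2.96e-05), and was at 5.36 ± 0.988 CPM in H2BE+BDNF and 5.04 ± 0.154 CPM in H2BE (0.07, edgeR adjusted p = 0.870). Between H2BE+BDNF and BDNF Slc7a11 was not called (-0.94, edgeR adjusted p = 0.151). That comparison does not test whether its BDNF response differed between the viruses. The test of that difference is not given here for Slc7a11, and no difference between the viruses is read from these values. Nqo1, a standard NRF2 readout, was under 1 CPM in all groups and was not tested.

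**Figure D5:**
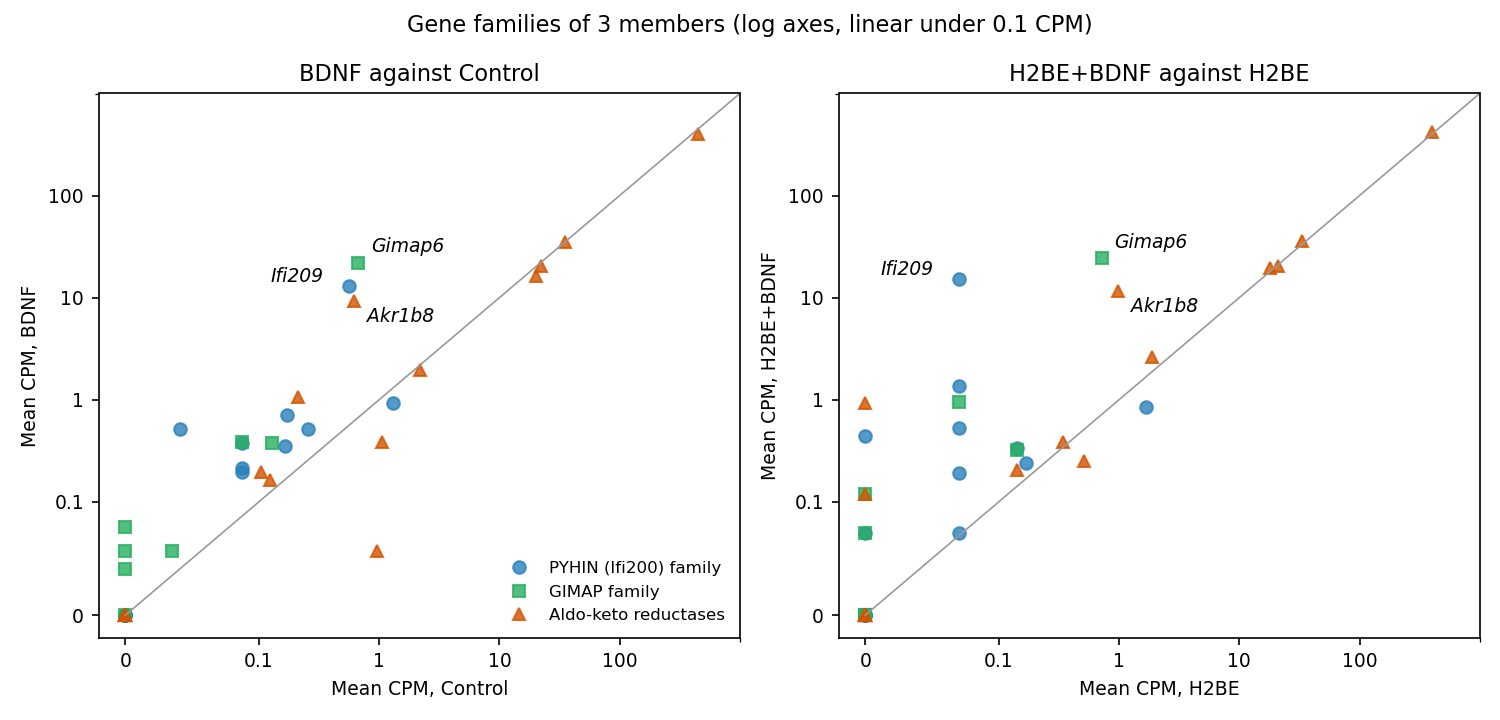
Mean CPM of the genes of the PYHIN, GIMAP and aldo-keto reductase families with BDNF (y axis) and without it (x axis), on log axes that are linear under 0.1 CPM, for BDNF against Control and H2BE+BDNF against H2BE. The line marks equal levels; Ifi209, Gimap6 and Akr1b8 lie far above it, and the relatives at over 10 CPM, all aldo-keto reductases, lie close to it.

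Among 28 other tested genes of Ras-like small GTPases, 5 were higher and 5 lower in BDNF than in Control (median log2 fold change -0.02), and 7 were higher and 3 lower in H2BE+BDNF than in H2BE (median -0.02). Diras2, a brain GTPase, rose to 424 ± 10.9 CPM in BDNF, against 307 ± 2.94 CPM in Control (0.45, edgeR adjusted p = 4.81e-06), and Diras1 fell to 125 ± 11.6 CPM in BDNF, against 163 ± 3.28 CPM in Control (-0.41, edgeR adjusted p = 0.000181). Both calls were also made in H2BE+BDNF against H2BE, at log2 fold changes of 0.43 and -0.42. Rras2 fell under both viruses (-0.35 and -0.33, edgeR adjusted p = 0.00369 and 0.0127) and Rala in BDNF against Control (-0.26, edgeR adjusted p = 0.00357). The call of Rras2 under the H2BE virus was lost without H2BE+BDNF replicate 2 or H2BE replicate 2 (edgeR adjusted p = 0.104 and 0.123). Rasl11b, the closest relative of Rasl11a by name, rose under both viruses. It was at 65.5 ± 3.83 CPM in BDNF and 47.7 ± 11.2 CPM in Control (0.42, edgeR adjusted p = 0.00891). That call was lost without Control replicate 2 (edgeR adjusted p = 0.0962). Under the other virus Rasl11b was at 64.9 ± 6.39 CPM in H2BE+BDNF and 44.4 ± 0.254 CPM in H2BE (0.55, edgeR adjusted p = 0.00405), a call lost without H2BE+BDNF replicate 2 (edgeR adjusted p = 0.0522). Gem, a GTPase that inhibits calcium channels, rose to 2.70 ± 0.457 CPM in BDNF, against 1.08 ± 0.0493 CPM in Control (1.24, edgeR adjusted p = 0.0155), and to 4.28 ± 0.543 CPM in H2BE+BDNF, against 0.678 ± 0.162 CPM in H2BE (2.67, edgeR adjusted p = 0.000335). Under the control virus that call was lost with DESeq2 (adjusted p = 0.152) and without BDNF replicate 1, Control replicate 1 or Control replicate 2 (edgeR adjusted p = 0.0739, 0.125 and 0.0656).

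Few of the genes whose proteins act with RADX at replication forks changed. Of 32 other fork genes tested, 2 were higher and 3 lower in BDNF than in Control (median log2 fold change -0.11), and 0 were higher and 2 lower in H2BE+BDNF than in H2BE (median 0.10). Mcm2, a subunit of the replicative helicase, was higher in BDNF, at 12.1 ± 1.05 CPM against 7.88 ± 0.196 CPM in Control (0.58, edgeR adjusted p = 0.0114), but DESeq2 did not call it (adjusted p = 0.144), nor did edgeR without Control replicate 1 (adjusted p = 0.125) or without BDNF replicate 2 (adjusted p = 0.0583). DESeq2 likewise did not call Smarcal1, higher in BDNF by edgeR, or Mcm7 and Tipin, lower in BDNF by edgeR (DESeq2 adjusted p = 0.0900, 0.175 and 0.329). Of 14 NF-kB targets tested, 1 was higher in BDNF than in Control, Nfkbiz, and 0 were called by edgeR in H2BE+BDNF against H2BE (medians 0.136 and 0.135). The call of Nfkbiz (log2 fold change 1.02, edgeR adjusted p = 0.0263) was lost with DESeq2 (adjusted p = 0.209) and without BDNF replicate 2, Control replicate 1 or Control replicate 2 (edgeR adjusted p = 0.0775, 0.0921 and 0.127).

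The nearest genes along the chromosome, 2 on each side of each member, were read next. Of these 24 genes 11 had no counts and 6 were tested, and 2 of the tested genes rose under both viruses. Over all tested genes 16.8% were called higher in BDNF than in Control and 13.4% in H2BE+BDNF than in H2BE. With 6 genes, nothing is read from this count. Rnf128, which encodes a ubiquitin ligase, starts 8.73 kb beyond the end of Radx on the same strand (chrX:139563316-139673145). It rose to 60.6 ± 5.02 CPM in BDNF, against 18.4 ± 1.93 CPM in Control (log2 fold change 1.72, edgeR adjusted p = 3.96e-09), and to 63.9 ± 3.00 CPM in H2BE+BDNF, against 15.98 ± 0.665 CPM in H2BE (2.001, edgeR adjusted p = 6.12e-09). Dusp5, a nuclear phosphatase of ERK, lies 64.3 kb from Mirt1 on the opposite strand (chr19:53529109-53542431). It rose to 39.7 ± 4.91 CPM in BDNF, against 12.6 ± 1.76 CPM in Control (1.62, edgeR adjusted p = 1.44e-07), and to 42.8 ± 4.65 CPM in H2BE+BDNF, against 11.5 ± 0.866 CPM in H2BE (1.87, edgeR adjusted p = 2.17e-07). Both genes lay above the floor of detection in every library.

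The remaining tested neighbours were flat or lower. Smndc1 beside Mirt1, Gtf3a beside Rasl11a and Akr1b1 beside Akr1b8 were not called under either virus. Mtif3, a mitochondrial translation factor 104 kb from Rasl11a, was at 14.8 CPM in BDNF and 21.5 CPM in Control (-0.50, edgeR adjusted p = 0.00973), a call lost with DESeq2 (adjusted p = 0.0835) and without Control replicate 2 (edgeR adjusted p = 0.0658). The gene 4833407H14Rik lies within Mirt1 on the other strand and had 1 count. It shares 10.9% of the 50-base windows of Mirt1, and whether the counting used strand is not given in the sources used here.

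Across the 8 distinct libraries the members moved closely together, with Pearson r of log2 CPM between 0.904 (Ifi209 and Gimap6) and 0.995 (Gimap6 and Rasl11a). These values are a description, since all genes here share the split between libraries with and without BDNF and the same library depths. Of 936 tested genes other than the members that had a symbol that is not provisional and were at most 2 CPM on average without BDNF, the 8 whose log2 CPM most resembled the members' mean over these libraries were Mmp3 (r = 0.999), Gpr50 (0.993), Ptgs2 (0.989), Mki67 (0.984), Epha2 (0.980), Elk3 (0.980), Galr1 (0.979) and Serpinb2 (0.974). Mmp3, a secreted metalloprotease, had 82, 106 and 46 counts in BDNF replicates 1 to 3 and 68 and 62 in H2BE+BDNF replicates 2 and 3, against 0 counts in all 5 libraries without BDNF. That is at least 52.7-fold higher in BDNF than in Control and at least 34.4-fold higher in H2BE+BDNF than in H2BE, taking 3 counts over the group as the floor. Ptgs2, the inducible cyclooxygenase, was at 8.74 ± 1.09 CPM in BDNF and 0.724 ± 0.209 CPM in Control, a ratio of summed counts of 14.4, and the ratio was 11.3 for H2BE+BDNF over H2BE. Elk3, an ETS transcription factor, had a ratio of 6.66 for BDNF over Control and 6.06 for H2BE+BDNF over H2BE, and Epha2, an ephrin receptor, 6.72 and 8.73 in these comparisons. Mki67, a marker of cycling cells, had 41 counts in BDNF and 10 in Control, a ratio of 3.45.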

How the data were processed

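The members, gene lists and motifs were chosen with earlier results of these data known. The raw counts that the authors deposited hold 48526 genes in each of 10 libraries. The deposited normalized counts, a signal scale, are these counts divided by 1 size factor per library, and gave the symbols of 5 of the 6 genes. Mirt1 was matched by its Ensembl ID. The submitters' processing notes name mm10, SAMtools, DESeq2 and deepTools; no source used here gives the aligner, counting tool or strand setting. Genes were filtered with filterByExpr (minimum count 10, minimum total 15), scaled by TMM and tested by the edgeR 4.0.16 quasi-likelihood test (limma 3.58.1, R 4.3.3) on 8 distinct libraries, with Benjamini-Hochberg adjustment and a threshold of 0.05. Log2 CPM used a prior count of 2. Ratios of summed counts carry exact (Clopper-Pearson) 95% intervals that cover counting error only. The genes named are the members, 2 neighbours on each side, the 8 genes most correlated with the members' mean, and up to 4 tested genes per list by smallest p. Aim2, Akr1b10, Nqo1, Fth1, Ftl1, Gem, Rras2, Rala, C1qa, Csf1r, Flt1 and genes with few or 0 counts are named outside this rule for context, after their values were seen. Replicate numbers were not used to pair the samples in the main fit (see the processing alternatives), and the labels do not say whether they mark shared cultures. DESeq2 1.42.0, another scaling, no filter, all 10 libraries, a replicate block and leaving out each library were tried. On simulated data the fit recovered the simulated signs.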

Additional observations from a re-analysis of the deposited data

How the results depend on the processing

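The 6 genes stayed higher with BDNF in all 14 settings, with log2 fold changes of 2.14 to 7.24 in BDNF against Control and 2.65 to 10.13 in H2BE+BDNF against H2BE. In the comparisons between viruses 0 of them were called in the 13 settings that gave them an adjusted p (DESeq2 gave none), with smallest adjusted p of 0.0971 (H2BE+BDNF against BDNF), 0.381 (H2BE against Control) and 0.328 (difference of responses).

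Counts of called genes moved more, and the causes were not tested. Against 4225 calls for BDNF against Control, DESeq2 gave 2512 and all 10 libraries as replicates 6465, and leaving out 1 library gave 2278 (without Control replicate 1) to 4499. Against 3466 for H2BE+BDNF against H2BE, DESeq2 gave 2226, and leaving out 1 library 1818 (without H2BE replicate 2) to 4157. For H2BE against Control (287) the counts were 559 without a filter, 1611 with all 10 libraries and 2 to 890 without 1 library. For H2BE+BDNF against BDNF (3) they were 15 with DESeq2, 216 without a filter, 24 with all 10 libraries and 1 to 764 without 1 library. The difference of responses (155) gave 440 without a filter, 1169 with all 10 libraries and 0 to 897 without 1 library.

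Same-numbered samples did not deviate together (correlations -0.1700 and -0.2987). With 1 difference between libraries per group, this does not settle whether the numbers mark shared batches. With a replicate block 140, 119 and 245 genes were called in those last 3 comparisons, and with crossed numbers, chosen after seeing the data, 1, 1 and 0. Uncalled differences of members changed sign. In H2BE against Control, Mirt1 was at 0.34 with the replicate block, and Rasl11a at 0.0433 and Radx at -0.0784 with crossed numbers. In H2BE+BDNF against BDNF, Ifi209 was at -0.0165 and Radx at -0.0152 with crossed numbers. In the difference of responses, all 10 libraries gave 0.0614 in Rasl11a and -0.22 in Radx. Without 1 library, H2BE against Control spanned -4.76 to 0.20 (Ifi209), -0.67 to 1.999 (Gimap6), -0.165 to 0.331 (Mirt1), -0.47 to 0.72 (Rasl11a) and -0.42 to 0.53 (Radx); H2BE+BDNF against BDNF -0.0680 to 0.62 (Akr1b8); and the difference of responses -1.86 to 0.81 (Gimap6), -0.60 to 0.12 (Akr1b8), -0.94 to 0.24 (Rasl11a) and -0.31 to 0.64 (Radx). Of 73 calls of other genes named by the rule above 18 were lost in some setting.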
